A study of Mus musculus with 6 samples.

Results

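The genes described here are 10 genes whose products neutrophils store in granules, hold in the cytosol or secrete. They are S100a8, S100a9, Stfa1, Ngp, Camp, Ltf, Mpo, Elane, Lcn2 and Retnlg. They were found by their gene names and are 10 of the 46983 genes in the deposited table. They had been chosen with their measured levels at the 2 ages in view, so their levels and differences are given as a description, with no test. The study sequenced RNA of aortic valves taken from wild type C57BL/6J mice on postnatal day 2, written PND2, or at 4 months. Each age had 3 libraries, and each library came from the pooled valves of 5 to 6 animals, so the spread between libraries is a spread between pools. No treatment or allele set the ages apart. The paper describes valves isolated with little heart muscle, but heart muscle genes were abundant in these libraries, as given below. In such bulk tissue, fewer cells of a type and less RNA per cell cannot be told apart.

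Neutrophils are short-lived phagocytes that make most of their granule proteins while they mature in blood-forming tissue. Primary (azurophil) granules are filled first, with myeloperoxidase and serine proteases. Secondary (specific) granules follow, with lactoferrin, cathelicidin and neutrophilic granule protein. S100a8 and S100a9 pair to form calprotectin, an abundant cytosolic protein of neutrophils that binds calcium, zinc and manganese and is also made by monocytes. Circulating mature neutrophils have largely ceased to transcribe primary granule genes, whereas S100a8 and S100a9 mRNA stays abundant in them.

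The values are RPKM, the reads on a gene scaled by its exonic length and by the read total of the library. Whole reads were recovered from them for 100% of values, with library totals from 23810507 to 38994657, and 1 read on 1 kb of exon was worth 0.0256 to 0.0420 RPKM. Reads summed over all genes came to 2.31 to 2.36 times the totals, and why they exceed the totals was not tested. If 1 RNA fragment was counted more than once, the counting intervals given below are too narrow. The limits given for a count of 0 would then be too low. Between 27813 and 29017 genes had reads in a library, and the mitochondrial share of reads on genes was 5.44 to 9.60%, with overlapping ranges at the 2 ages. The 25903 genes that reached 0.1 RPKM in 3 libraries entered a limma fit of age on log2(RPKM + 0.1). A gene was called where its Benjamini-Hochberg adjusted p was under 0.05 and its fold change over 2. By this rule 8.47% of the genes tested were lower at 4 months and 8.72% were higher. Centring each library on its median gene would shift the difference of 4 months minus PND2 by 0.12 on the log2 scale, since the median of that difference over all genes was -0.14.

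Several of the genes lie close to relatives or to each other in mm10, the genome build used by the authors. S100a8 (chr3:90668978-90670035, plus strand) and S100a9 (chr3:90692632-90695721, minus strand) are separated by 22.6 kb. Camp (chr9:109847379-109849617, minus strand), Ngp (chr9:110419747-110423012, plus strand) and Ltf (chr9:111019271-111042767, plus strand) follow each other with gaps of 570 and 596 kb. Stfa1 (chr16:36277148-36285371, plus strand) lies within the stefin A cluster, and Retnlg (chr16:48872608-48874498, plus strand) is on the same chromosome. Mpo (chr11:87793581-87804413, plus strand), Elane (chr10:79886312-79888216, plus strand) and Lcn2 (chr2:32384633-32388252, minus strand) stand apart from the others. All 10 are annotated as protein coding. Mpo is the only one whose exons overlap those of another annotated gene, the antisense Gm11505, which was listed at 0 in every library.

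The sequence before the start of 5 of these genes is shown because they had the most PND2 reads among the genes with every PND2 library above every library of 4 months. The bases are from RefSeq's GRCm38.p6 promoters, the build called mm10, read 5′ to 3′ on the strand of the gene. They end just before the first start that either RefSeq or the authors' table gives. Capitals mark matches to TTGCNNAA, letters bound by C/EBP factors of granulocyte maturation, or to GAGGAAGT, letters bound by PU.1, on either strand. S100a8 is shown at chr3:90668821-90668977, S100a9 at chr3:90695722-90695971, Stfa1 at chr16:36276898-36277147, Ngp at chr9:110419558-110419746 and Ltf at chr9:111019042-111019270.
S100a8: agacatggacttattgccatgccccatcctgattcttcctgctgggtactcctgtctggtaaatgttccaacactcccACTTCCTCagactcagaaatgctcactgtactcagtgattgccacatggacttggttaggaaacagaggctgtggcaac
S100a9: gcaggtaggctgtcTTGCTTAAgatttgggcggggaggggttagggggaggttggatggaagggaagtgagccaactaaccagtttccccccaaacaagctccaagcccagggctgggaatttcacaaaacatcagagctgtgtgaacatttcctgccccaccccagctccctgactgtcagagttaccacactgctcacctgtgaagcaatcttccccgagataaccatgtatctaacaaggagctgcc
Stfa1: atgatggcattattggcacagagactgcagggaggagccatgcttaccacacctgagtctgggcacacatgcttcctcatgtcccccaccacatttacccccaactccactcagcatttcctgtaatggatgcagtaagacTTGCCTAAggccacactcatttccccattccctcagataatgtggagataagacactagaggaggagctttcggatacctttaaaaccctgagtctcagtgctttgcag
Ngp: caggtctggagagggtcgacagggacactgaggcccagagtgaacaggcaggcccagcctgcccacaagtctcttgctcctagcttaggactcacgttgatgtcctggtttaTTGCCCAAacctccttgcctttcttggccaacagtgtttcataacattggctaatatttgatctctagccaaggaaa
Ltf: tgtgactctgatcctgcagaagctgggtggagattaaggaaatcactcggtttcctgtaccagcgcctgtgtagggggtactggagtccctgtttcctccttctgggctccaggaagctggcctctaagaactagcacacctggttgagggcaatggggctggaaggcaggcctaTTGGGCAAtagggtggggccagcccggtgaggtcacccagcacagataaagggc
These matches are descriptions of letters, not measured binding sites.

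Each of the 10 genes had 1 RefSeq promoter of 300 bases, with 250 before and 50 after the annotated start. TTGCNNAA was present in 6 of the 10 (S100a9, Stfa1, Ngp, Ltf, Lcn2 and Retnlg), against 10.8% of the 32851 mouse promoters in the same table. Ngp held it at 2 positions, -138 and -11 from the RefSeq start. GAGGAAGT was present in 3 of the 10 (S100a8, Mpo and Elane), against 3.20% of all promoters. In S100a8 it lay on the opposite strand at position -172, and in Elane and Mpo it lay at -85 and -224. None of the 10 promoters held both sets of letters, and the Camp promoter held neither. The letters TATAAA, those of the classical core promoter box, were found in S100a8 at -30 and in S100a9 at the start itself, against 13.6% of all promoters. The genes share protein families and neighbours, so that these promoters are not independent draws.

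S100a9, of the calprotectin pair, had the highest mean level of the 10 at PND2, and the means of Stfa1 and S100a8 came next. S100a9 had 15.9, 11.9 and 18.7 RPKM in PND2 replicates 1, 2 and 3, and 0.205, 0 and 0 RPKM at 4 months. These values stood for 324, 189 and 285 reads at PND2 and for 4 reads in all at 4 months, each of them in replicate 1. At PND2 the mean level of S100a9 exceeded that of 67.8% of the genes tested. The pooled read rate was 182 times higher at PND2, with an exact 95% interval of 70.8 to 670. That interval covers counting error only and takes the reads as independent. Without 4 months replicate 1 no read of S100a9 remained at that age, and a count of 0 in the other two libraries allows up to 0.241 and 0.199 RPKM (3 reads). S100a8 had 8.98, 10.1 and 8.03 RPKM at PND2 and 0.347, 0.787 and 0.498 RPKM at 4 months. Its mean was 9.02 ± 1.02 RPKM (SD, n = 3) at PND2 and 0.544 ± 0.223 RPKM (SD, n = 3) at 4 months, a ratio of 16.6. Unlike S100a9, S100a8 kept reads in every library of 4 months (9, 13 and 10 reads). The ratio of S100a9 to S100a8 in RPKM was 1.77, 1.18 and 2.32 in the PND2 libraries and 0.591, 0 and 0 in those of 4 months. The log2 difference of 4 months minus PND2 was -3.88 (SE 0.29) for S100a8 and -6.72 (SE 0.47) for S100a9, on the scale of log2(RPKM + 0.1), which understates the change of genes with low values.

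**Figure D1:**
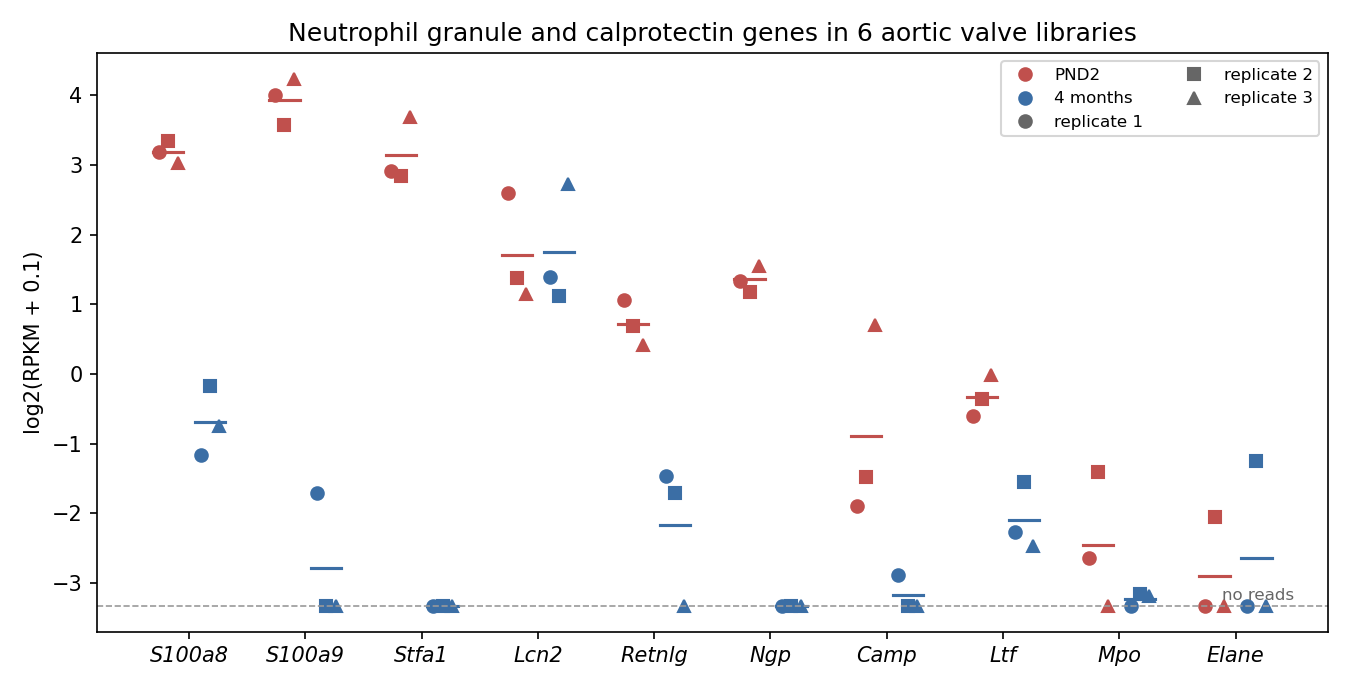
Level of each of the 10 genes as log2(RPKM + 0.1) on the vertical axis, by gene on the horizontal axis, with 1 point per library (PND2 red, 4 months blue, shape by replicate) and a bar at the mean of each age. In 7 genes the 3 PND2 libraries lie above those of 4 months, whereas Lcn2, Mpo and Elane overlap between the ages; the dashed line is where a library had no reads.

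Stfa1 and Retnlg encode further small proteins that are abundant in neutrophils. Stfa1, stefin A1, is a cytosolic inhibitor of cysteine cathepsins. It had 7.42, 7.06 and 12.8 RPKM in the PND2 libraries (121, 90 and 156 reads) and no read in any library of 4 months. A count of 0 allows up to 0.192, 0.301 and 0.248 RPKM in those libraries, and against the mean of these limits Stfa1 was at least 36.7-fold higher at PND2. Retnlg, a resistin-like secreted protein of neutrophils, had 1.98, 1.51 and 1.24 RPKM at PND2 and 0.264, 0.207 and 0 RPKM at 4 months. Its means were 1.58 ± 0.377 and 0.157 ± 0.139 RPKM (SD, n = 3), a ratio of 10.03 that rested on 9 reads at 4 months and was 15.2 without 4 months replicate 1 and 6.69 without replicate 3. The 3 PND2 libraries lay above those of 4 months in both genes.

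Among the secondary granule genes, Ngp was the one with no read at 4 months. Ngp, a cystatin-like granule protein, had 2.43, 2.17 and 2.82 RPKM at PND2 (116, 81 and 101 reads). The 3 libraries of 4 months allow up to 0.0657, 0.103 and 0.0848 RPKM, so that Ngp was at least 29.3-fold higher at PND2. Its PND2 libraries differed little, with an SD of 13.3% of the mean. Ltf, lactoferrin, an iron-binding protein, had 0.557, 0.684 and 0.892 RPKM at PND2 and 0.109, 0.243 and 0.0801 RPKM at 4 months. The Ltf means of 0.711 ± 0.169 and 0.144 ± 0.0873 RPKM (SD, n = 3) gave a ratio of 4.93, or 7.53 without 4 months replicate 2, which held 20 of the 42 reads of that age. Camp, the precursor of the cathelicidin antimicrobial peptide, had 0.169, 0.259 and 1.53 RPKM at PND2 and 0.0353, 0 and 0 RPKM at 4 months. Of the 45 Camp reads at PND2, 34 were in replicate 3, and 1 read was found at 4 months. The pooled rate of Camp was 41.1 times higher at PND2, with a counting interval of 7.002 to 1657. Its ratio of mean RPKM was 55.5 with all libraries and 18.2 without PND2 replicate 3.

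The primary granule genes were close to the limit of detection at both ages and did not pass the filter on low values. Mpo, myeloperoxidase, which makes hypochlorous acid, had 0.0599, 0.278 and 0 RPKM at PND2 and 0, 0.0123 and 0.0101 RPKM at 4 months. It had 8, 29 and 0 reads at PND2 and 0, 1 and 1 reads at 4 months. The pooled Mpo rate was 16.9 times higher at PND2 (counting interval 4.35 to 145), but PND2 replicate 3 had no read, and the ratio of mean RPKM was 15.1 with all libraries and 4.02 without PND2 replicate 2. Elane, neutrophil elastase, had reads in 1 library of each age, with 4 reads (0.142 RPKM) in PND2 replicate 2 and 7 reads (0.320 RPKM) in 4 months replicate 2. The ages overlapped for both genes, and for Elane the depth did not allow a difference to be seen in either direction. The counting interval of the pooled Elane rate at PND2 over 4 months ran from 0.112 to 2.05.

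Lcn2, lipocalin 2, binds bacterial siderophores and is also made by many epithelial and stromal cells. It had 5.94, 2.51 and 2.11 RPKM at PND2 and 2.52, 2.08 and 6.49 RPKM at 4 months. The means of 3.52 ± 2.11 and 3.70 ± 2.43 RPKM (SD, n = 3) differed by far less than the spread between libraries, and 1 library of each age stood above the other two. With 971 reads at PND2 and 870 at 4 months, Lcn2 was the best sampled of the 10 genes at 4 months. Its log2 difference was 0.04 (SE 0.52), its sign depended on which library was included, and the ratio of mean RPKM at PND2 over 4 months was 0.952, or 1.53 without 4 months replicate 3 and 0.625 without PND2 replicate 1.

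Of the 10 genes, 7 had every PND2 library above every library of 4 months, beside 29.9% of the genes tested. The same 7 met the limma rule for lower at 4 months, beside 8.47% of the genes tested, which is not a test of them. The genes were chosen on this contrast, so these counts describe the choice. Of the 10, 8 passed the filter on low values, 6 of them (S100a9, Stfa1, Ngp, Camp, Ltf and Retnlg) without reaching 0.1 RPKM in all libraries of 4 months. These 6 passed only through PND2, so the filter itself favoured their direction. Summed over the genes other than Lcn2, the level was 37.5, 34.0 and 45.9 RPKM at PND2 and 0.961, 1.57 and 0.588 RPKM at 4 months. S100a8 and S100a9 made up 66.3, 64.4 and 58.1% of that sum in the PND2 libraries.

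The reads at PND2 were spread over several exons of the well sampled genes. Overlapping exons were merged into blocks for this count. Ngp had reads on each of its 4 exon blocks in every PND2 library, Stfa1 on each of 3 and S100a8 on each of 3. S100a9 had reads on 2 of its 3 blocks in every PND2 library. Lcn2 had reads on 3 of its 5 blocks in every PND2 library, and on all 5 only in 4 months replicate 3. Ltf had PND2 reads on 17 of its 18 blocks and reads of 4 months on 11. The low genes were patchier. Mpo had reads on 3 of its 15 blocks in PND2 replicate 1 and on 8 in replicate 2, and Elane on 3 of 5 in each of its 2 libraries with reads. Camp had reads on 2, 3 and 4 of its 4 blocks in PND2 replicates 1, 2 and 3.

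The 3 PND2 pools did not rank the genes in a common order. PND2 replicate 3 was highest for S100a9, Stfa1, Ngp, Camp and Ltf (5 genes), replicate 2 for S100a8, Mpo and Elane (3 genes), and replicate 1 for Lcn2 and Retnlg (2 genes). The highest library exceeded the lowest by 1.25 times for S100a8, 1.30 times for Ngp, 1.57 times for S100a9, 1.60 times for Ltf and for Retnlg, and 1.81 times for Stfa1. For Lcn2 the factor was 2.82 and for Camp 9.06. Red cell genes were ordered differently from the 5 genes led by replicate 3 and in the same order as Lcn2 and Retnlg. Hba-a1 and Hbb-bs, both globins, and Alas2, the heme synthesis enzyme of red cell precursors, were highest in replicate 1 and lowest in replicate 3. There they stood at 0.804, 0.790 and 0.671 of their PND2 means. The exons of Alas2 overlap those of Apex2 and Mir3620 on the other strand.

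**Figure D2:**
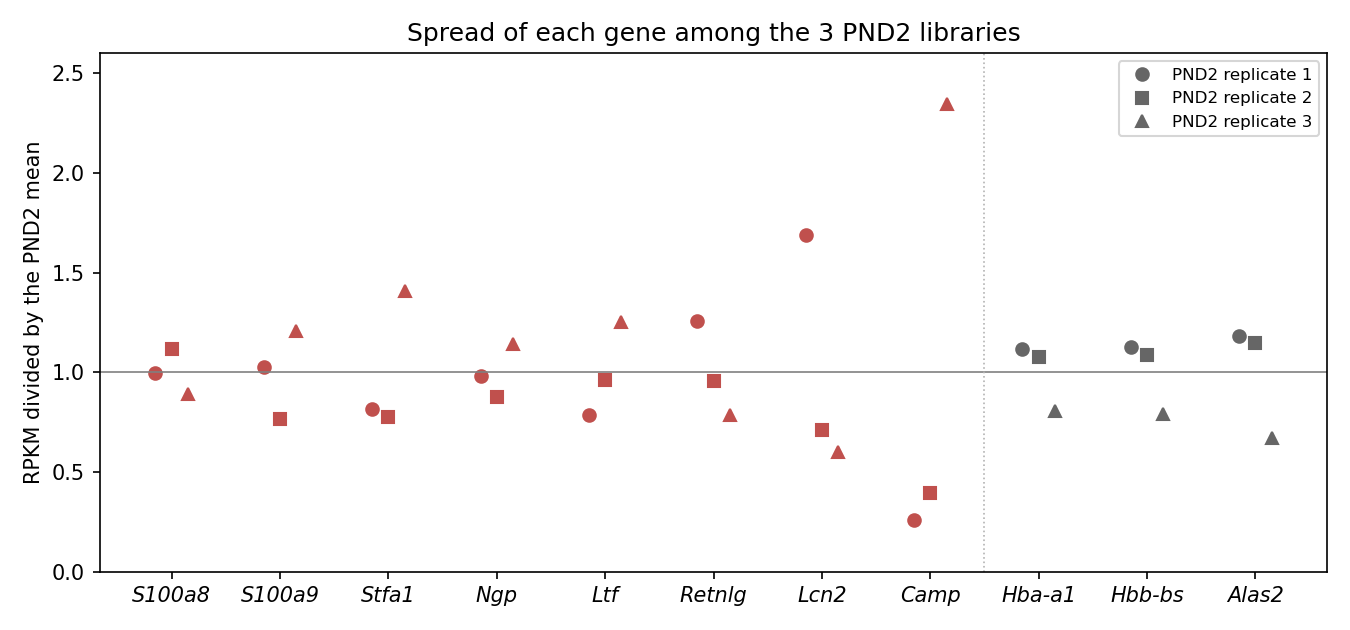
RPKM of each gene in each PND2 library divided by the mean of the 3 PND2 libraries (vertical axis), for the 8 genes with reads in every PND2 library (red) and 3 red cell genes (grey), with 1 point per library. Camp spans 9.06 times between its lowest and highest library and S100a8 1.25 times. Replicate 3 is highest for Stfa1, S100a9, Ngp, Ltf and Camp and lowest for S100a8, Lcn2, Retnlg and the red cell genes.

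Stfa1 stands in a cluster of related stefin A genes on chromosome 16, of which 10 including Stfa1 were examined over 335 kb. Of the other 9, 7 were tested and 6 fell at 4 months (limma), beside 8.47% of all genes tested. These 6 passed the filter on low values only through PND2, where they were high, so their direction was fixed by the filter and the count is a description. These were Gm5483, Stfa2, BC100530, Stfa2l1, 2010005H15Rik and BC117090, with log2 differences from -6.27 to -3.78. Gm5483 had 8.98, 5.22 and 9.41 RPKM at PND2, and BC100530 had 3.73, 3.44 and 7.35 RPKM. Stfa2 had 4.37, 4.57 and 6.38 RPKM, and Stfa2l1 had 2.11, 4.43 and 4.38 RPKM. These 4 genes and BC117090 had no read at 4 months, whereas 2010005H15Rik had 2, 2 and 0 reads there. The sequences of these genes are much alike, and how reads matching several of them were counted is not given in the sources used here, so the level of each, Stfa1 included, is uncertain and the 6 calls may not be independent. BC100530 also overlaps the exons of Gm15845 on the other strand.

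Stfa3, at the far end of the cluster, did not follow the others. It had 1.06, 1.51 and 1.74 RPKM at PND2 and 0.0650, 1.94 and 1.84 RPKM at 4 months, and its log2 difference of -0.80 (SE 0.93) did not pass the test (limma adjusted p = 0.54). In 4 months replicates 2 and 3 Stfa3 was above every PND2 library, and replicate 1 held 1 read. Gm5416 had 5 reads in all, in PND2 replicate 3. Csta1 had 7 reads in PND2 replicate 1 and 4 reads in 4 months replicate 3.

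**Figure D3:**
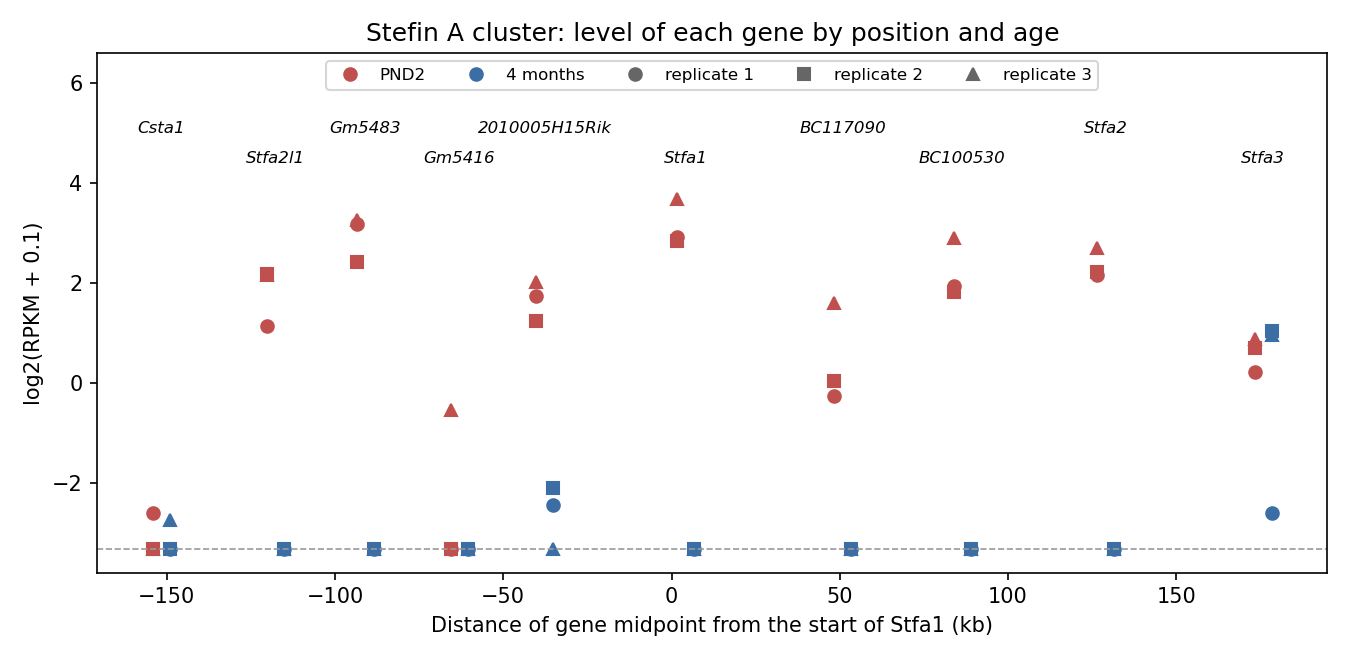
Level of Stfa1 and 9 other stefin A cluster genes as log2(RPKM + 0.1) (vertical axis) against the distance of each gene's midpoint from the start of Stfa1 in kb (horizontal axis), with 1 point per library (PND2 red, 4 months blue, shape by replicate). The dashed line is where a library had no reads; Stfa3 is the gene with levels above 1 RPKM at both ages.

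Other neutrophil genes passed the test in both directions. Of 29 genes listed for granule contents, receptors and other neutrophil proteins, 17 were tested. At 4 months 3 fell (17.6%, beside 8.47% of all genes) and 2 rose (11.8%, beside 8.72%), and 12 did not pass. The median log2 difference was -0.66, beside -0.14 over all genes. Those that fell were Olfm4, olfactomedin 4 of a subset of neutrophils, Mmp8, neutrophil collagenase, and Asprv1, an aspartic protease also made in skin. Olfm4 had 0.407, 0.420 and 0.813 RPKM at PND2 and no read at 4 months (log2 difference -2.64). Mmp8 had 41, 13 and 13 reads at PND2 and none at 4 months. Olfm4 and Mmp8 passed the filter only through PND2, so their direction was fixed by it. Asprv1 had 1.21, 0.784 and 0.795 RPKM at PND2 and 0.260, 0.190 and 0.469 RPKM at 4 months. None of the 3 was called with a pseudocount of 1.

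The 2 that rose are known from other cells as well. Hp, haptoglobin, which is also made by liver and fat, rose from 0.783, 0.878 and 0.560 RPKM to 59.9, 72.6 and 50.1 RPKM (log2 difference 6.18, limma adjusted p = 1.2e-05). Mmp9, gelatinase B of neutrophil tertiary granules, which macrophages and other cells also make, rose from 0.152, 0.204 and 0.608 RPKM to 4.71, 3.75 and 2.82 RPKM (log2 difference 3.32, limma adjusted p = 0.0015).

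Receptors and other markers of neutrophils ranged from no reads to low levels at both ages. Of 16 listed, 8 were tested. Of these 1 fell (Asprv1, 12.5%, beside 8.47% of all genes) and 0 rose (beside 8.72%). Their median log2 difference was -0.87. In 4 of the 8 (Cxcr2, Clec4d, Padi4 and Asprv1) every PND2 library lay above every library of 4 months, beside 29.9% of the genes tested. The reverse held for Csf3r alone, beside 5185 of the 25903 genes tested. Ly6g, the standard mouse neutrophil antigen, had no read at PND2 and 1 read at 4 months. Cxcr1 had 4 reads, all in 4 months replicate 2, and Mrgpra2a and Mrgpra2b had 2 reads each, all in 4 months replicate 3. Cxcr2, the chemokine receptor for exit from the marrow, had 0.252, 0.409 and 0.269 RPKM at PND2 and 0.0703, 0.207 and 0.170 RPKM at 4 months, a difference that did not pass (limma adjusted p = 0.18). Csf3r, the G-CSF receptor, was at 0.519, 0.626 and 0.852 RPKM at PND2 and 1.13, 0.861 and 1.19 RPKM at 4 months, so that the means lay in the opposite direction to those of S100a8 and S100a9, again without passing (limma adjusted p = 0.15). Clec4d had 0.770, 0.492 and 0.342 RPKM at PND2 and 0.335, 0.0788 and 0.238 RPKM at 4 months (limma adjusted p = 0.12). Padi4 had 3.10, 0.745 and 0.848 RPKM at PND2 and 0.410, 0.660 and 0.729 RPKM at 4 months (limma adjusted p = 0.19). Chil3 was listed for granules rather than receptors and is also made by macrophages. It had 0.817, 0.221 and 0.314 RPKM at PND2 and 0, 0.0515 and 0.169 RPKM at 4 months (limma adjusted p = 0.056).

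Other primary granule genes gave few reads, as Mpo and Elane did. Ctsg, cathepsin G, had 5, 2 and 3 reads at PND2 and 2, 0 and 0 reads at 4 months. Prtn3, proteinase 3, had 14, 17 and 22 reads at PND2 and 21, 10 and 1 reads at 4 months, and its exons overlap those of Lppr3 on the other strand. Ms4a3 had no read in any library. Prss57 is an exception in level, at 35.0, 45.1 and 36.5 RPKM at PND2 and 32.9, 27.4 and 33.0 RPKM at 4 months, but its exons overlap those of Fstl3 on the other strand, and whether the counting used strand is not given in the sources used here. Neither Prtn3 nor Prss57 passed the limma test, and 1 of these 2 genes had an unadjusted p under 0.05; voom on the recovered reads called neither.

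Receptors of calprotectin moved in different directions. Ager, the receptor for advanced glycation end products, fell from 6.12, 6.70 and 5.49 RPKM to 0.488, 0.922 and 0.581 RPKM (log2 difference -3.06, limma adjusted p = 0.00027). Tlr4, the endotoxin receptor, rose from 8.12, 6.40 and 6.16 RPKM to 15.03, 15.7 and 13.7 RPKM (log2 difference 1.10, limma adjusted p = 0.0015). Bsg, basigin, stood between 394 and 502 RPKM in all libraries and did not pass.

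Relatives of the 10 genes in the S100 and resistin families were examined in the same way. Of 11 other S100 genes of the same chromosome 3 cluster, 9 were tested and 3 rose (S100a4, S100a6 and S100a7a), 33.3% beside 8.72% of all genes. S100a4 rose from 150, 151 and 84.2 RPKM to 440, 339 and 583 RPKM, and S100a6 from 185, 169 and 119 RPKM to 508, 411 and 519 RPKM, both calcium-binding proteins of fibroblasts and other cells. S100a4 also overlaps the exons of Gm42674, annotated on the same strand, so its level is uncertain. In the resistin family, Retn had no read at PND2 and 4.83, 35.4 and 4.44 RPKM at 4 months, and Retnla, made by macrophages and fat, went from 2 reads in all to 125, 115 and 76.6 RPKM. Both met the rule for higher but had passed the filter only through 4 months, so their direction was fixed by it. Retnlb had no read.

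Regulators of granulocyte formation and chemokines of neutrophils are given for the same libraries. Of 6 such regulators, 4 were tested and 2 rose (beside 8.72% of all genes). These were Cebpa, a C/EBP factor also used by fat cells and macrophages, from 1.26, 2.03 and 2.24 RPKM to 15.8, 30.05 and 19.97 RPKM, and Spi1, which encodes PU.1, from 2.44, 3.19 and 3.23 RPKM to 8.15, 4.71 and 6.63 RPKM. Cebpe, the C/EBP factor of secondary granule genes, had 2, 3 and 1 reads at PND2 and none at 4 months, below the filter. Of 4 neutrophil chemokines, 3 were tested and 1 rose (33.3%, beside 8.72%). This was Cxcl1, from 0.807, 0.769 and 0.747 RPKM to 1.90, 1.23 and 1.97 RPKM (limma adjusted p = 0.024). Of 5 subunits of the phagocyte oxidase, which neutrophils share with macrophages, 3 rose (Cybb, Ncf1 and Ncf4), 60.0% beside 8.72%.

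Markers of other cells that the dissected tissue could hold were counted beside these genes, and their part in the result was not tested. Of the 4 pan-leukocyte genes 3 rose at 4 months (Ptprc, Itgb2 and Laptm5), 75.0% beside 8.72% of all genes. Their summed level was 27.5 to 39.9 RPKM at PND2 and 82.3 to 95.1 RPKM at 4 months, over all 4 genes. Of the 10 monocyte and macrophage genes 7 rose (70.0%, beside 8.72%), with sums of 248 to 307 RPKM and 499 to 646 RPKM. These were Csf1r, Adgre1, C1qa, C1qb, C1qc, Ly6c2 and Ccr2. Leaving out PND2 replicate 2 or 4 months replicate 1 left 4 of these calls. Cd68 and Mrc1 were higher in every library of 4 months without a call. Cx3cr1 went the other way, from 15.1, 11.7 and 14.1 RPKM to 10.7, 8.53 and 7.04 RPKM, by less than the fold required. Of 8 lymphocyte genes 7 were tested and 3 rose (42.9%, beside 8.72%). These were Cd3d, Cd3e and Cd3g of T cells, which passed the filter only through 4 months. The sum over the 8 genes was 1.70 to 3.07 RPKM at PND2 and 2.77 to 6.27 RPKM at 4 months. Of the 6 mast cell genes 4 fell (Cpa3, Cma1, Tpsb2 and Hdc), 66.7% beside 8.47% of all genes. The sums were 119 to 172 RPKM at PND2 and 55.4 to 71.5 RPKM at 4 months.

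Red cell genes were lower on average at 4 months without passing the test. Of 10 listed, 9 were in the table and 5 were tested, and limma called 0, with 1 at an unadjusted p under 0.05 and 0 by voom. Their median log2 difference was -0.81, and their summed level was 1865 to 2599 RPKM at PND2 and 750 to 2158 RPKM at 4 months, so that the ages overlapped. Without 4 months replicate 2, which had the highest globin level of that age, 4 were called lower. That library also held the 7 Elane reads and the highest S100a8 and Ltf levels of its age, but no read of S100a9 or Camp. In contrast, 4 months replicate 1, with the lowest globin levels, held the 4 S100a9 reads and the 1 Camp read of that age. It also had the highest Retnlg level of that age. Whether these levels are related was not tested. Of 6 platelet genes 5 were tested and 0 were called by limma or voom, with 2 at an unadjusted p under 0.05. Their sum was 75.4 to 78.5 RPKM at PND2 and 66.9 to 87.7 RPKM at 4 months. None of 5 eosinophil and basophil genes passed the filter, and their sum was at most 0.0827 RPKM at PND2 and 0.355 RPKM at 4 months.

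**Figure D4:**
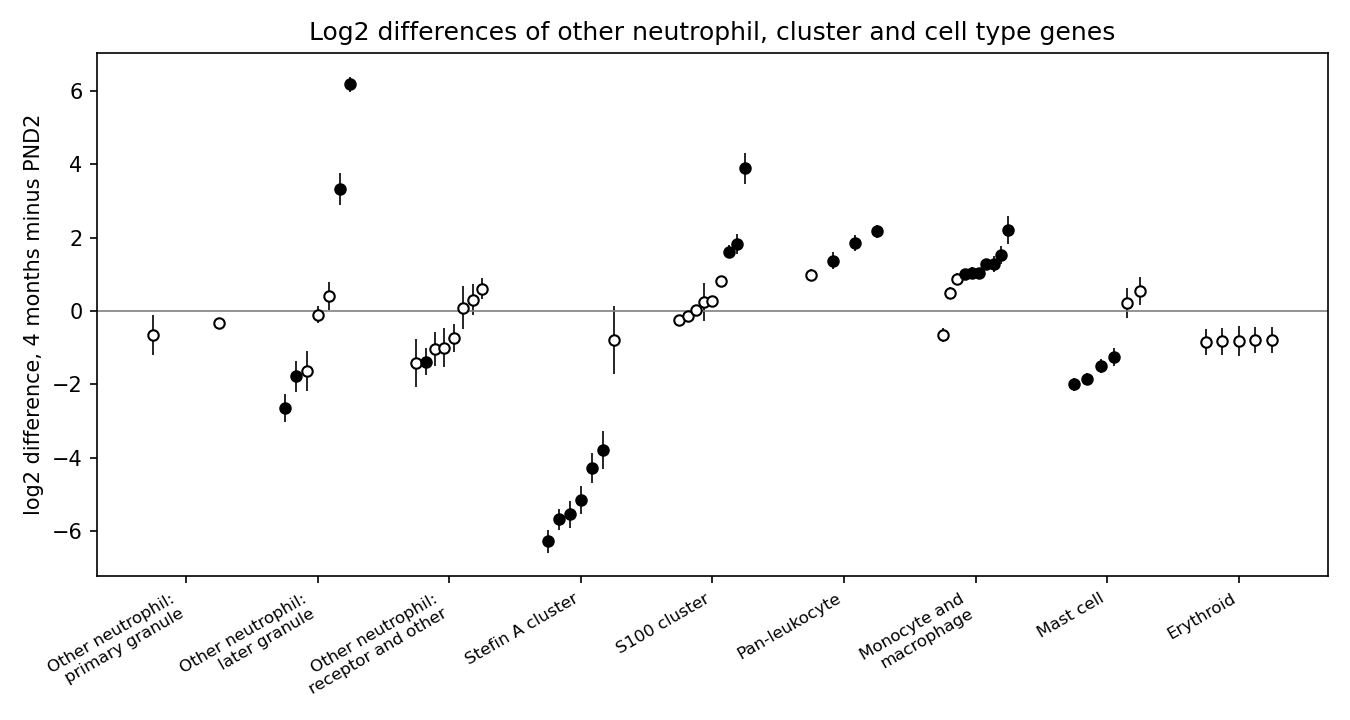
Log2 difference of 4 months minus PND2 (vertical axis, log2(RPKM + 0.1) scale) for each tested gene of 9 lists that exclude the 10 genes (horizontal axis), with 1 point per gene, bars of 1 limma SE and filled points for genes called at an adjusted p under 0.05 and a fold over 2. The stefin A cluster has 6 filled points from -6.27 to -3.78, the 3 other neutrophil lists together have 3 filled points below 0 and 2 above, and the red cell genes have none.

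Genes listed for interstitial and endothelial cells of the valve were present at both ages. Whether they mark valve rather than adjoining tissue was not tested. The interstitial cell genes Col1a1, Col3a1, Vim, Postn and Vcan summed to 4622 to 5141 RPKM at PND2 and 3361 to 4192 RPKM at 4 months. Of these 5 genes 1 fell (Vcan, 20.0%, beside 8.47% of all genes). Vim was higher in every library of 4 months, without being called. The endothelial genes summed to 226 to 310 RPKM and 139 to 145 RPKM, and Cdh5 and Emcn fell. Heart muscle genes were abundant in this dissected tissue. Their sum was lower at 4 months, at 11751 to 14936 RPKM and 4528 to 7070 RPKM. Of these genes 3 of 5 fell (Myh7, Tnnt2 and Actc1, 60.0%, beside 8.47%). Nppa overlapped between the ages, with 327, 479 and 706 RPKM at PND2 and 874, 502 and 40.7 RPKM at 4 months.

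The genes whose profile lay nearest to the mean profile of the 10 were sought among all genes tested. Each profile was centred on its own mean of log2(RPKM + 0.1) over the 6 libraries, and the distance was Euclidean. The 10 nearest were Tmeff1, Gm5648, Rergl, Gm24154, Marcksl1, Sdk1, Cdca7l, Plekhd1, Bves and Tmem178, at distances of 0.285 to 0.3999 log2 units. None of them is on the neutrophil lists. The mean profile averaged genes with log2 differences from -6.72 (S100a9) to 0.26 (Elane). Genes with steeper, flatter or more variable profiles could not lie near it, so this absence allows no conclusion. Bves, a membrane protein of striated muscle, went from 164, 161 and 156 RPKM to 16.8, 23.7 and 15.97 RPKM, and Marcksl1, an actin-binding protein, from 102, 109 and 128 RPKM to 14.7, 15.2 and 15.5 RPKM. With a pseudocount of 1, 0 of these 10 were again among the nearest 10.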

How the data were processed

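Total RNA from the pooled valves was made into TruSeq Stranded libraries and sequenced in paired 50-nt reads. The authors aligned the reads to mm10 with TopHat2 2.1.0, used easyRNASeq to count reads per Ensembl gene and exon, and deposited RPKM values per gene and per exon. Those values were used as deposited, before the read minimum and floor that the study describes. Whole reads were recovered from each RPKM, its exonic length and the library total (tolerance 0.01 read). A count of 0 was taken to allow 3 reads, and intervals are exact at 95% for independent reads.

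Differences come from limma 3.58.1 in R 4.3.3, 2-sided, with a mean-variance trend and a pseudocount of 0.1. An exact permutation test of 3 libraries against 3 cannot give a p below 0.1. Alternatives were other pseudocounts and filters, median scaling, the per-gene unequal-variance test of the study, a replicate block, voom on recovered reads and each library left out. The fits were tested on simulated data. Tables and figures used matplotlib 3.10.9, scipy 1.17.1, pandas 2.3.3 and numpy 2.4.6 under Python 3.11.15.

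The 10 genes and the gene lists were chosen with earlier results of these data known. Genes are named as one of the 10, as part of a list, or as one of the 10 nearest profiles. Motif letters were searched on both strands, with no merging of overlaps between motifs. Protein sequences were not used here.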

Additional observations from a re-analysis of the deposited data

How the results depend on the processing

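Low reads at 4 months limit the ratios given for these genes other than Lcn2, whose ratio is limited by the spread between libraries. The calls are limited by 3 libraries per age. Over all genes, 2193 were lower and 2259 higher at 4 months. A pseudocount of 1 gave 1252 and 1460, the per-gene unequal-variance test gave 982 and 1049, and median scaling gave 1782 and 2602. The 3 other neutrophil genes that fell became 0 with a pseudocount of 1, with the RPKM minimum raised to 1, and with the per-gene test. The per-gene test left 1 of the 2 other neutrophil genes that rose and 3 of the 7 monocyte and macrophage genes. The cause of these changes was not tested. With 1 library left out, the monocyte and macrophage count ran from 4 to 7 and the red cell count from 0 to 4, the 4 arising without 4 months replicate 2. The 6 stefin A cluster calls numbered 5 or 6 in every alternative. The count of 7 genes above every library of 4 months was 7 with median scaling as well. With pseudocounts of 1 and 0.01 the log2 difference of S100a9 was -3.93 and -9.10, and that of S100a8 was -2.70 with a pseudocount of 1; values this low depend on the amount added. The log2 difference of Lcn2 was -0.0097 by voom and ran from -0.45 to 0.48 with 1 library left out, and its ratio of mean RPKM at PND2 over 4 months ran from 0.625 to 1.53. The log2 difference of Elane was 0.26, and ran from -0.43 to 0.69. Pairing by replicate number was not seen. Deviations of same-numbered libraries correlated at 0.044, -0.061 and -0.16, and those of unlike-numbered libraries at -0.18 to 0.23. A shared shift of few genes would not show in these values. A fit with the replicate block gave 1966 lower and 2081 higher genes. With only the 250 bases before the start, TATAAA was found in 1 promoter of the 10.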
